A study of Drosophila melanogaster with 8 samples.

Results

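The Hox genes encode homeodomain transcription factors that give each body segment of the fly its identity, and they lie in 2 clusters on chromosome arm 3R. The Antennapedia complex holds lab, pb, Dfd, Scr and Antp, which act in the head and anterior thorax, and the bithorax complex holds Ubx, abd-A and Abd-B, which act in the posterior thorax and abdomen. Polycomb and Trithorax group proteins keep Hox genes silent or active through development. In larvae the eye-antennal disc forms the eye, antenna, maxillary palp and head capsule, Dfd acts in its maxillary region, and Antp is the classic case of a thoracic selector that turns antenna into leg when it is expressed in this disc.

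Members were the probe sets to which the platform annotation gave 1 gene symbol that was one of these 8 names, whatever their signal. The rule found 6 of 18952 probe sets, standing for 4 of the 8 genes and among 11982 genes with such a probe set: pb (1624703_at), Dfd (1633869_at), Scr (1633345_at) and Antp (1624759_s_at, 1638665_at and 1640208_s_at, called here the first, the second and the third Antp probe set). The genes lab, Ubx, abd-A and Abd-B were not analysed here. The suffix _s_at marks a probe set whose probes match more than 1 transcript, so part of its signal can come from another RNA.

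Total RNA of eye-antennal discs dissected from wandering-stage larvae was measured on 8 Affymetrix arrays, 2 biological replicates for each of 4 genotypes. Each sample pooled 100 pairs of discs, and 100 ng of RNA went through 2 rounds of amplification before hybridization. All larvae carried the eyeless driver ey-GAL4, which acts where the eyeless enhancer is active. The vg_simj group carried UAS-vg and UAS-simj, the vg group UAS-vg and UAS-lacZ, the simj group UAS-simj and UAS-lacZ, and the control group, lacZ, 2 copies of UAS-lacZ. The count of UAS-lacZ copies was thus 0 in vg_simj, 1 in vg and in simj and 2 in lacZ, and its effect cannot be told apart from that of the genotype. The wing selector cofactor Vestigial is encoded by vg, and simj encodes the p66 subunit of NuRD, a chromatin-remodelling and histone-deacetylase complex. The series concerns a switch of eye discs toward another disc fate.

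Array medians lay between 36.55 and 46.3 on the deposited linear signal scale. The transgenes were visible in the signals: vg had 401 and 432 in vg_simj and 234 and 259 in vg, against 16.6 and 22.2 in simj and 29.4 and 28.0 in lacZ, and simj was higher on all 4 simj-carrying arrays (912 to 1260) than on the 4 others (479 to 727). All 8 eye disc markers (ey, toy, so, eya, gl, ato, sev and ro) passed the signal filter described next, and their summed signal was 8361 to 10530 in vg_simj, 11167 to 12706 in vg, 7087 to 7326 in simj and 11712 to 13154 in lacZ. Over the probe sets that passed this filter, the log2 signals of the 2 arrays of a genotype correlated at 0.9555 to 0.9705, and those of arrays from unlike genotypes at 0.9115 to 0.9635. The p-values measure the spread between these arrays.

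Probe sets were tested where 2 or more of the 8 arrays had a signal above their own median. Of the 6 Hox probe sets, 3 passed: Dfd and Scr on all 8 arrays, and pb on 4. None of the 3 Antp probe sets exceeded the median on any array. Changes are differences of log2(signal + 2.8) with their standard error (SE) from limma, and a probe set was called at an adjusted p under 0.05 over all 10205 probe sets fitted (Benjamini-Hochberg). Signals of different probe sets depend on their probes, so they are compared between genotypes only.

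**Figure D1:**
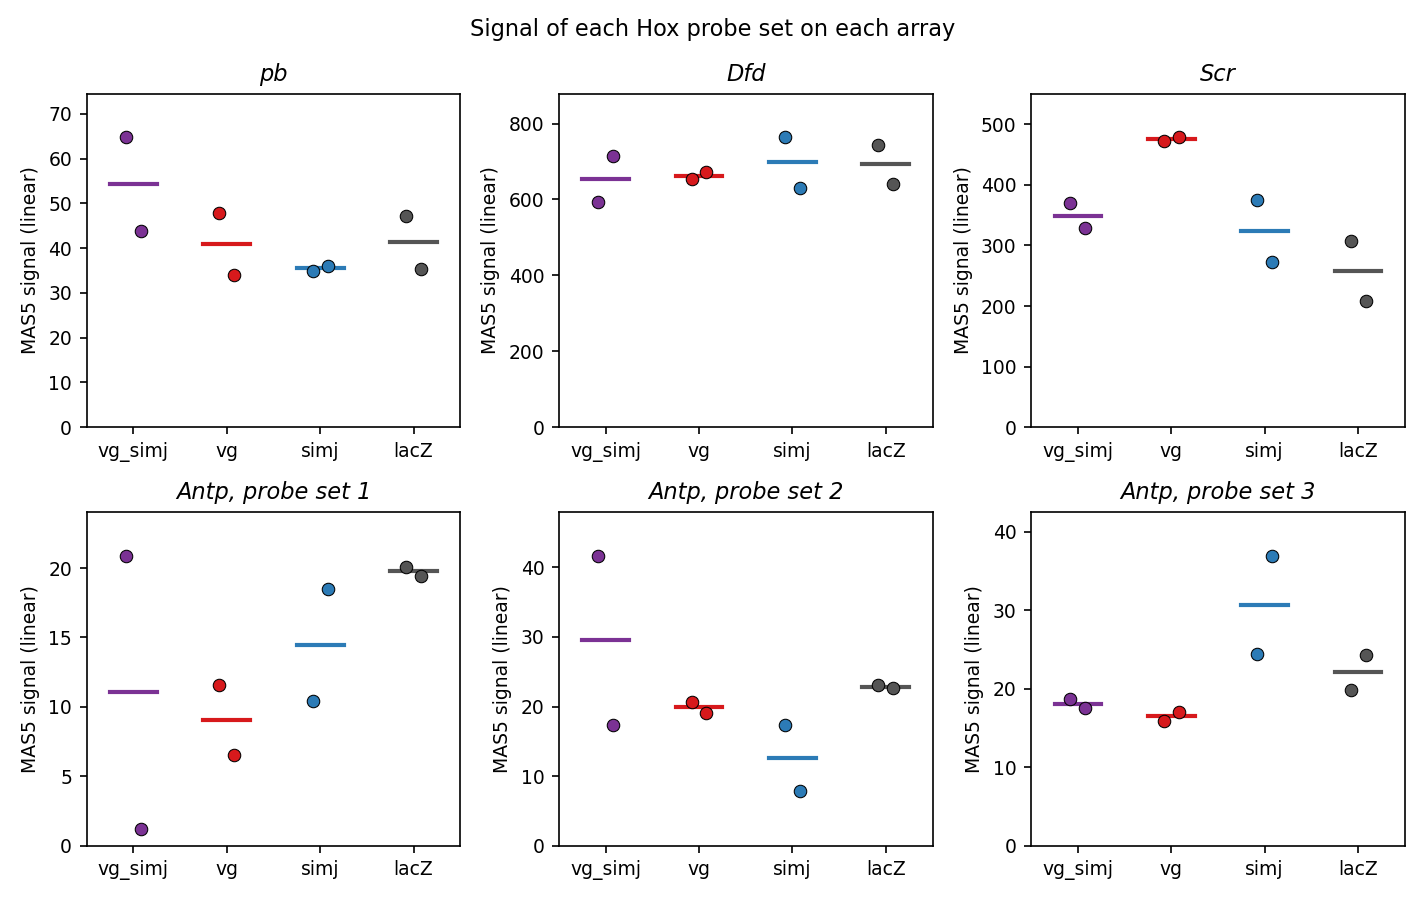
MAS5 signal on a linear axis starting at 0 for each of the 6 Hox probe sets, with a point for each of the 2 arrays of a genotype and a bar at their mean. Both vg arrays lie above the other 6 arrays for Scr, while the groups overlap for Dfd, and the 3 Antp probe sets stay at or below 41.7.

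Among the 3 fitted Hox genes, Scr had the widest spread of genotype means, spanning 0.90 on the log2 scale. The protein of Scr, Sex combs reduced, gives the labial and first thoracic segments their identity. Its signals were 370 and 329 in vg_simj, 472 and 479 in vg and 374 and 273 in simj, against 307 and 209 in lacZ. Both vg arrays lay above every other array, both vg_simj arrays lay above both lacZ arrays, and the simj arrays overlapped those of vg_simj and of lacZ.

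The mean Scr signal was 476 ± 4.74 in vg and 258 ± 69.2 in lacZ (SD, n = 2 each), a log2 change of 0.90 ± 0.23 (SE) with a 95% interval from 0.36 to 1.44, or a fold of 1.87 with an interval from 1.29 to 2.71. This did not pass the test (limma, adjusted p = 0.187, unadjusted p = 0.00485), and here 0.774% of the probe sets fitted were called. In the same comparison 2.39% of the fitted probe sets had a larger rise than Scr and 2.58% a smaller p. Both vg arrays exceeded both lacZ arrays in 20.0% of the fitted probe sets, and both exceeded the other 6 arrays in 4.46%. Of the 2 lacZ arrays, replicate 2 was the lower, and without it the Scr change was 0.63, against 1.18 without lacZ replicate 1. In such bulk samples the number of Scr-expressing cells and the Scr RNA per cell cannot be told apart.

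With both transgenes the Scr signal was 350 ± 29.4, against 258 ± 69.2 in lacZ, a change of 0.46 ± 0.23 (limma, adjusted p = 0.424), which was 0.18 without lacZ replicate 2 and 0.73 without lacZ replicate 1. The order of the genotypes for Scr, high to low, was vg, vg_simj, simj and lacZ. Of the neighbours in that order, vg_simj and simj overlapped, as did simj and lacZ. The arrays of vg_simj and vg did not overlap, with a difference of -0.44 ± 0.23 (limma, adjusted p = 0.626), and both vg_simj arrays lay below both vg arrays in 17.6% of all fitted probe sets. Both vg_simj arrays lay above both lacZ arrays in 21.4% of them.

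The effect of vg on Scr was thus 0.90 without simj and 0.13 ± 0.23 with it (vg_simj against simj, limma, adjusted p = 0.822). The test of the difference itself, the interaction, gave -0.78 ± 0.33 with a 95% interval from -1.54 to -0.02 (limma, unadjusted p = 0.0463, adjusted p = 0.995). The vg signal was 401 and 432 in vg_simj and 234 and 259 in vg, a difference of 0.75 ± 0.27 (limma, adjusted p = 0.376). The 2 vg effects on Scr thus come from groups with unlike vg signals, and the part of this in the interaction was not tested. Averaged over both simj backgrounds the vg effect was 0.51 ± 0.16 (adjusted p = 0.133, unadjusted p = 0.0144), and the simj effect averaged over both vg backgrounds was -0.06 ± 0.16 (adjusted p = 0.933). The simj change alone, 0.33 ± 0.23 (adjusted p = 0.765), had an interval from -0.21 to 0.87, and leaving out lacZ replicate 2 gave 0.058, lacZ replicate 1 gave 0.61, simj replicate 1 gave 0.11 and simj replicate 2 gave 0.56.

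Scr is expressed in the first thoracic segment and in the embryonic primordium of the salivary gland, so markers of thoracic discs and of salivary glands are given beside it. The 10 thoracic disc markers (nub, ap, zfh2, Doc1, Doc2, Doc3, eyg, bi, pnr and tup) all passed the signal filter. Their summed signal was 5274 to 6017 in vg_simj, 3723 to 4345 in vg and 3525 to 4173 in simj, against 3134 to 3355 in lacZ. This sum was highest in vg_simj and the Scr signal in vg, and none of the 10 markers was below 29.1 on any array. In lacZ eye-antennal discs bi alone had 1264 and 1047, and it had 2380 and 2453 in vg_simj. The nub signal was 175 and 78.9 in lacZ and 781 and 943 in vg_simj. The sum is therefore not a measure of thoracic tissue alone. Of the 10, 2 were called higher in vg_simj against lacZ, where 1.04% of all fitted probe sets were, and 0 in vg or in simj. The 11 salivary markers summed to 1831 to 15209 in vg_simj, 872.5 to 5806 in vg and 2757 to 2894 in simj, against 181 to 245 in lacZ, and their lowest member was at 0.8. Of the 11, 9 passed the filter, and 0 were called in vg, simj or vg_simj against lacZ. Signals of the salivary marker ng1 differed between replicates, with 5858 and 528.5 in vg_simj and 1368 and 10.3 in vg. The 2 vg arrays had salivary sums of 5806 and 872.5 and Scr signals of 472 and 479. Ring gland markers, of which 9 of 10 were measured and all 9 passed the filter, summed to 4286 to 5222 in vg_simj, 7975 to 8356 in vg and 31133 to 37886 in simj, against 24837 to 30258 in lacZ. The 9 haemocyte markers summed to 2515 to 3245 in vg_simj, 1106 to 1644 in vg and 6988 to 10453 in simj, against 5356 to 6720 in lacZ. Both sums were lower on all 4 vg-carrying arrays than on the 4 others, and the averaged vg effect lowered 9 of the 9 ring gland markers and 6 of the 9 haemocyte markers, where 2.69% of all fitted probe sets were called lower. The part of any of these tissues in the Scr values was not tested.

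Dfd had nearly the same signal in every genotype. The protein of Dfd, Deformed, gives the maxillary and mandibular segments their identity, and the disc forms the maxillary palp. Its signals were 593 and 715 in vg_simj, 653 and 672 in vg and 765 and 631 in simj, against 744 and 642 in lacZ. Every genotype overlapped every other, and the 4 group means on the log2 scale spanned 0.09.

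Against lacZ, the Dfd change was -0.09 ± 0.16 in vg_simj, with a 95% interval from -0.46 to 0.29 (limma, adjusted p = 0.876). In vg it was -0.06 ± 0.16, with an interval from -0.44 to 0.32 (adjusted p = 0.948). In simj it was 0.0076 ± 0.16, with an interval from -0.37 to 0.39 (adjusted p = 0.993). Changes beyond these bounds lay outside the intervals, and smaller ones could not be resolved with 2 arrays a group. Its direction in all 3 was turned by centring the arrays on their medians, after which the median of all fitted probe sets was 0.11 in vg, -0.05 in simj and 0.09 in vg_simj. Adding simj to vg gave -0.02 ± 0.16 and adding vg to simj -0.09 ± 0.16, and the interaction was -0.03 ± 0.23. The effects averaged over backgrounds were -0.08 ± 0.12 for vg and -0.0083 ± 0.12 for simj.

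The gene pb, whose protein Proboscipedia patterns the labial and maxillary mouthparts, stayed close to the array median. Its signals were 64.8 and 43.9 in vg_simj, 47.9 and 33.9 in vg and 34.9 and 36.0 in simj, against 47.1 and 35.4 in lacZ. The vg_simj replicate 1 array was the highest and vg replicate 2 the lowest, and vg_simj overlapped both vg and lacZ. On each array its signal ranked between the 45.8th and the 54.6th percentile of all probe sets. Against lacZ, the pb change was 0.36 ± 0.43 in vg_simj (limma, adjusted p = 0.772), -0.02 ± 0.43 in vg (adjusted p = 0.996) and -0.19 ± 0.43 in simj (adjusted p = 0.952). In vg_simj it was 0.10 without vg_simj replicate 1, 0.63 without vg_simj replicate 2, 0.56 without lacZ replicate 1 and 0.17 without lacZ replicate 2. Both vg_simj arrays exceeded both simj arrays, as they did in 27.2% of all fitted probe sets, with a pb change of 0.55 ± 0.43 and an interval from -0.45 to 1.56 (adjusted p = 0.549). Adding simj to vg gave 0.38 ± 0.43, the interaction was 0.57 ± 0.61, and the averaged effects were 0.27 ± 0.31 for vg and 0.10 ± 0.31 for simj. The intervals for pb were the widest of the 3 fitted Hox genes, from -1.02 to 0.98 in vg and from -1.19 to 0.81 in simj.

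**Figure D2:**
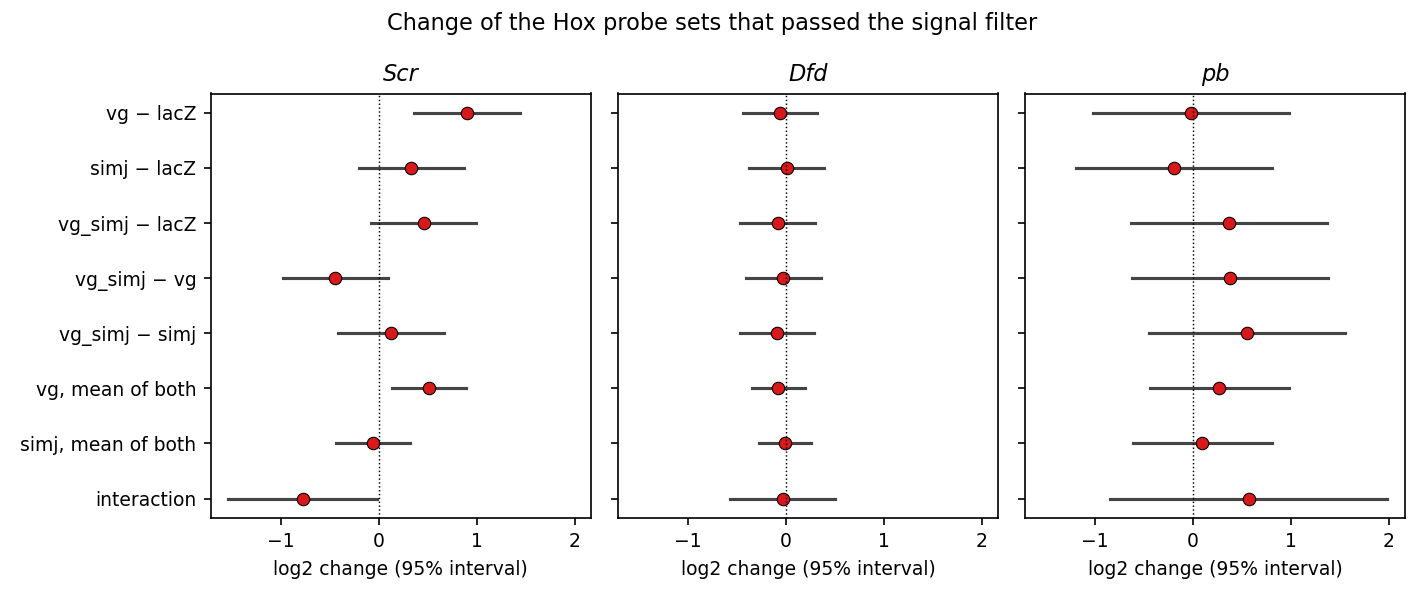
Log2 change (points) with its 95% interval (lines) for Scr, Dfd and pb in the 5 pairwise comparisons, the vg and simj effects averaged over both backgrounds, and the interaction. The Scr interval for vg against lacZ runs from 0.36 to 1.44. The Dfd points lie close to 0 with intervals that reach to both sides of it, from -0.57 to 0.50 in the interaction, and the pb intervals are wide.

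No Hox probe set that was fitted passed the test in any of the 8 comparisons (0 of 3 in each, limma). The share of all fitted probe sets called was 0.774% in vg, 0.412% in simj and 3.33% in vg_simj, each against lacZ. It was 0.921% in vg_simj against vg, 1.30% in vg_simj against simj, 0.0490% in the interaction, 3.66% for the averaged vg effect and 2.18% for the averaged simj effect. At an unadjusted p under 0.05 the count was 1 of 3, Scr, in vg against lacZ, where 10.1% of all fitted probe sets passed, in the interaction (3.96%) and in the averaged vg effect (21.4%), and 0 of 3 in the other 5. In those 5 the share of all fitted probe sets was 8.17% in simj, 15.4% in vg_simj, 9.58% in vg_simj against vg, 17.1% in vg_simj against simj and 12.8% for the averaged simj effect. With no signal filter, so that the Antp probe sets were also tested, 0 of 6 were called in each of the 8 comparisons. The share called without the filter was 0.394% in vg, 0.149% in simj and 1.53% in vg_simj against lacZ, 0.469% in vg_simj against vg, 0.693% in vg_simj against simj, 0.0266% in the interaction, 1.68% for the averaged vg effect and 1.03% for the averaged simj effect. The median change of the 3 fitted Hox probe sets was -0.02 in vg, 0.0076 in simj and 0.36 in vg_simj, beside medians of -0.0043, -0.035 and 0.0013 over all fitted probe sets.

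Antp, the thoracic selector Antennapedia, had low signals on all 3 of its probe sets in all genotypes. The first had 20.9 and 1.20 in vg_simj, 11.6 and 6.50 in vg and 10.4 and 18.5 in simj, against 20.1 and 19.4 in lacZ. The second had 41.7 and 17.4 in vg_simj, 20.7 and 19.1 in vg and 17.4 and 7.80 in simj, against 23.1 and 22.6 in lacZ. The third had 18.7 and 17.5 in vg_simj, 15.9 and 17.1 in vg and 24.4 and 37.0 in simj, against 19.9 and 24.3 in lacZ. The probe sets did not share an order of genotypes: by log2 mean the highest group was lacZ for the first, vg_simj for the second and simj for the third. The highest of these 24 signals, 41.7, lay below the median of its own array, 42.7. Detection calls were not used here, so these values do not show whether Antp RNA was present. In the test without the filter, vg_simj against lacZ gave an Antp change of -1.21 ± 0.86 for the first probe set (limma, adjusted p = 0.711), 0.23 ± 0.66 for the second (adjusted p = 0.955) and -0.25 ± 0.57 for the third (adjusted p = 0.935).

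The other genes that lie within the 2 complexes were examined through their probe sets, a set drawn up from the reference gene table after the files were seen. Of 40 such genes in the Antennapedia complex 12 had a probe set, 13 probe sets in all, and 3 of these passed the filter. Of 14 in the bithorax complex 2 had one, 6 probe sets in all, and none passed. The homeobox genes zen, zen2, bcd and ftz, which act in the early embryo and have lost homeotic function, stayed below the array median on all 8 arrays, with ftz between 0.8 and 9.7 and zen2 between 6.4 and 30.8. The probe set of zen reached 32 and those of bcd 17.8.

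Ama, which encodes the secreted immunoglobulin-domain protein Amalgam and lies between bcd and Dfd, was, with lncRNA:CR33938, one of 2 neighbours with signals far above the median. It had 3704 and 3621 in vg_simj, 4842 and 5646 in vg and 4938 and 3857 in simj, against 4003 and 4342 in lacZ. The vg arrays lay above the lacZ arrays, as in 20.0% of all fitted probe sets, and the vg_simj arrays below them, as in 20.9%, with changes of 0.33 ± 0.15 in vg (limma, adjusted p = 0.516) and -0.19 ± 0.15 in vg_simj (adjusted p = 0.633). The probe set annotated as lncRNA:CR33938, which lies among the cuticle genes between lab and pb, had 40696 and 38586 in vg_simj, 29239 and 30171 in vg and 26488 and 26013 in simj, against 30379 and 28662 in lacZ. It was higher in vg_simj than in simj by 0.59 ± 0.10 (limma, adjusted p = 0.0342), where 1.30% of all fitted probe sets were called. This call was lost without vg replicate 2, either simj array or either vg_simj array (adjusted p from 0.0518 to 0.292), and with no filter, quantile normalization, median centring or no intensity trend (0.0505 to 0.137). Against lacZ its change in vg_simj was 0.43 ± 0.10 (adjusted p = 0.0635), which passed with the stricter filter alone among the alternatives (adjusted p = 0.0358). Its suffix is _s_at, so other transcripts can contribute to this signal. The cuticle gene Ccp84Ae, the third probe set that passed, had 73.3 and 12 in vg_simj, 15.4 and 32.7 in vg and 42.6 and 49.8 in simj, against 18.6 and 65.7 in lacZ.

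**Figure D3:**
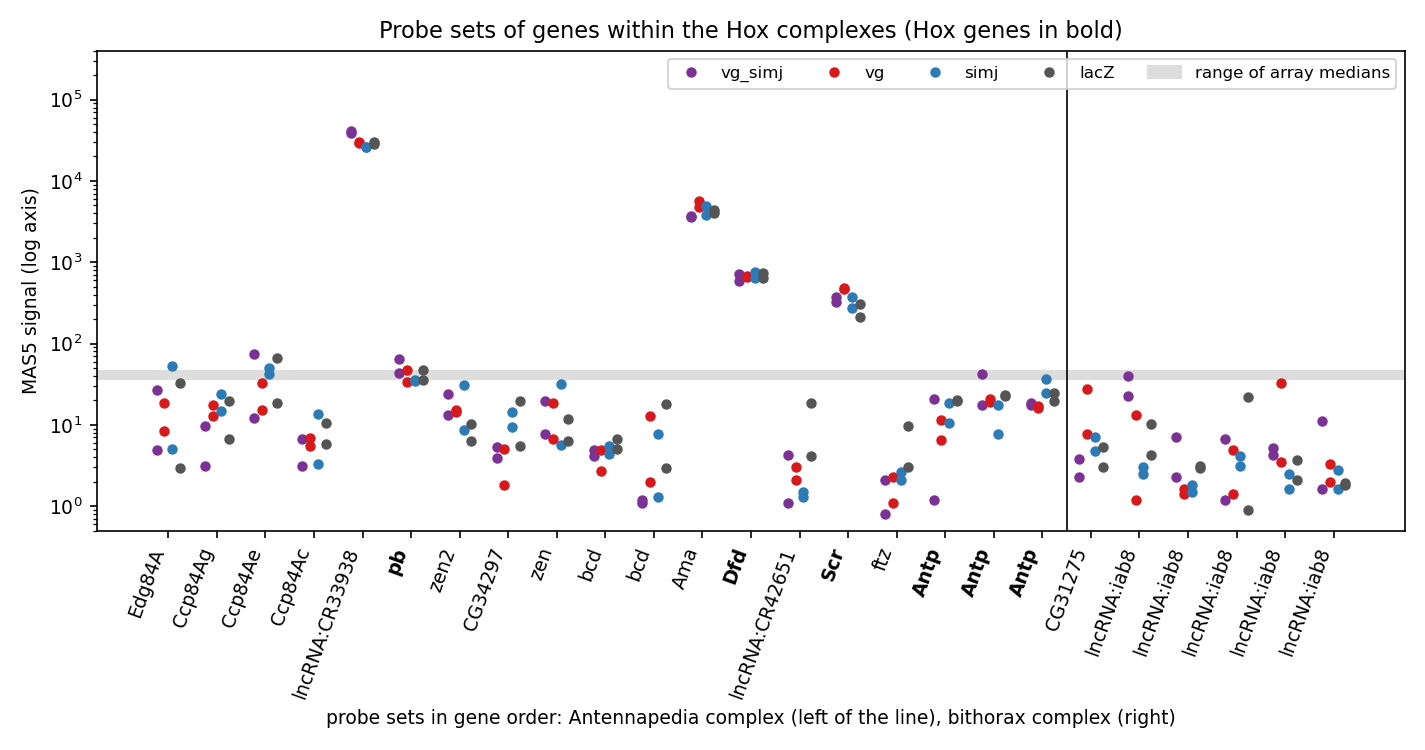
MAS5 signal (log axis) on all 8 arrays for every probe set of a gene within the Antennapedia complex (left of the vertical line) and the bithorax complex (right), in gene order and coloured by genotype, with Hox genes in bold and the range of array medians shaded. Ama, Dfd, Scr and the lncRNA:CR33938 probe set lie above the medians on all 8 arrays, and the rest lie near or below them. Heights of different probe sets are not comparable.

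Hox proteins act with cofactors, of which Extradenticle and Homothorax are the best known, and with regional selectors of the Teashirt and Disco families. The genes exd and hth were not analysed here. The other 4 of the list of 6 were fitted, and 0 were called in vg, in simj or in vg_simj against lacZ, with median changes of -0.12, 2.6e-05 and -0.05 and 1 gene of 4, tsh in vg_simj, at an unadjusted p under 0.05, beside 15.4% of all fitted probe sets in that comparison. The trunk selector tsh had signals of 524 and 626 in vg_simj, 584 and 694 in vg and 741 and 571 in simj, against 786 and 767 in lacZ. All 6 transgenic arrays were below both lacZ arrays, a pattern seen in 4.20% of all fitted probe sets, with a change of -0.44 ± 0.18 in vg_simj (limma, adjusted p = 0.289). For its paralogue tio the difference in simj was -0.31 ± 0.46 (adjusted p = 0.917). The zinc-finger genes disco and disco-r, which define head segments together with Dfd in the embryo, were at 0.25 ± 0.18 (adjusted p = 0.765) and 0.33 ± 0.17 (adjusted p = 0.688) in simj.

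Of 19 genes known to be regulated by Hox proteins in embryos or discs, 15 were fitted. In vg 1 rose, the transgene vg itself, where 0.255% of all fitted probe sets were called higher. In simj 0 were called, with 4 of 15 at an unadjusted p under 0.05, beside 8.17% of all fitted probe sets. In vg_simj 3 rose, where the background was 1.04%: vg, the BMP ligand gene dpp and the appendage selector Dll. Here too vg was the transgene, so its rise was set by the genotype. The dpp signal was 1395 and 1492 in vg_simj, against 791 and 809 in lacZ, and the Dll signal 1579 and 1909 in vg_simj, against 1142 and 928 in lacZ. The changes were 0.85 ± 0.12 for dpp (limma, adjusted p = 0.00909) and 0.75 ± 0.15 for Dll (adjusted p = 0.0402). The dpp call was lost without lacZ replicate 1, lacZ replicate 2 or vg_simj replicate 2 (adjusted p from 0.0547 to 0.0627), and the Dll call without any one of the 8 arrays (adjusted p from 0.0584 to 0.184). With median centring, no intensity trend or only the groups compared, the Dll call was also lost (limma, adjusted p = 0.0651, 0.0886 and 0.1005). The transcriptional cofactor gene nab had 110 and 157 in vg_simj, 18.5 and 20.8 in vg and 29.2 and 7.50 in simj, against 16.5 and 14.6 in lacZ, with a change of 2.88 ± 0.65 in vg_simj (adjusted p = 0.0585). It passed under 8 of the alternatives, without either simj array among them (adjusted p from 0.0117 to 0.0495). The averaged simj effect raised dpp by 0.48 ± 0.09 (adjusted p = 0.0325), where 0.539% of all fitted probe sets were called higher, and this was lost without any one of the 8 arrays (0.0702 to 0.137). This averaged dpp call was also lost with median centring or no intensity trend (limma, adjusted p = 0.107 and 0.0691). The median change of the 15 was 0.09, 0.04 and 0.23 in vg, simj and vg_simj, each against lacZ.

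Genes that pattern the antenna and head, the region where ectopic Antp acts, were followed over both backgrounds. Of 16 such genes 15 were fitted. In vg and in simj against lacZ 0 of the 15 were called, where 0.774% and 0.412% of all fitted probe sets were. The averaged simj effect lowered 4 of them, where 1.64% of all fitted probe sets were called lower: danr (-0.95 ± 0.13, limma, adjusted p = 0.0099) and dan (-0.93 ± 0.13, adjusted p = 0.0116), which encode antennal pipsqueak-domain factors, and the BarH genes B-H1 (-0.91 ± 0.14, adjusted p = 0.0178) and B-H2 (-0.71 ± 0.13, adjusted p = 0.0373). Eye and neuron genes moved with these: the same averaged simj effect lowered 7 of 11 eye disc genes, with a median of -0.66 over the 11 (gl at -1.34, sev at -1.69, ro at -1.41 and chp at -1.70, with so, eya and ato the others), and 4 of 7 fitted neuron markers, with a median of -0.97 over the 7. The median over all fitted probe sets was -0.01, and that over the 15 antennal and head genes -0.04. In simj against lacZ, 1 of the 11 eye disc genes, gl, was called lower and 0 of the 7 neuron markers. Of all fitted probe sets 0.265% were called lower there. The part of eye or neuron cell numbers in the antennal and head values was not tested. The call of danr was lost without simj replicate 2 (adjusted p = 0.0521), that of dan without lacZ replicate 2 or simj replicate 2 (0.0503 and 0.0609), and that of B-H1 without lacZ replicate 2, vg replicate 2, simj replicate 2 or vg_simj replicate 1 (0.0597 to 0.0824). That of B-H2 was lost without any one array other than vg_simj replicate 2 (adjusted p from 0.0559 to 0.154). In vg_simj against lacZ 1 of the 15, Dll, rose and 1, dan, fell (-0.92 ± 0.18, adjusted p = 0.038), where 2.29% of all fitted probe sets were called lower, and the dan call was lost without any one array other than vg_simj replicate 2 (0.0530 to 0.177). The averaged vg effect raised 1, the homeobox gene al (0.70 ± 0.12, adjusted p = 0.0209), where 0.970% of all fitted probe sets were called higher, and this was lost without lacZ replicate 1, vg replicate 2, vg_simj replicate 2 or either simj array (0.0534 to 0.0932). With median centring or no intensity trend the B-H2 call was also lost (limma, adjusted p = 0.0597 and 0.0863). The dan call in vg_simj was lost with these (0.1245 and 0.0821) and with only the groups compared (0.0747). The members overlap with eye genes: ey, toy and dac were also among the 11 eye disc genes, and dan and danr also act in the eye field. The list is thus not one of antennal cells alone.

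The Polycomb and Trithorax group genes, which regulate Hox chromatin, held no call in any of the 8 comparisons. The share of all fitted probe sets called in these was 0.0490% to 3.66%. At such shares a list of 13 or 14 genes can hold no call without differing from the rest. Of 19 Polycomb group genes 14 were fitted, and 0 were called in vg, simj or vg_simj against lacZ, with median changes of 0.04, -0.06 and 0.12 and 1 gene of 14, Scm in vg_simj, at an unadjusted p under 0.05, beside 15.4% of all fitted probe sets. The 4 genes with the smallest p over these comparisons were Scm (0.31 ± 0.13 in vg_simj, limma, adjusted p = 0.320), Pc, the chromodomain subunit that binds methylated histone H3 (0.33 ± 0.18 in vg, adjusted p = 0.601), Psc (-0.39 ± 0.22 in simj, adjusted p = 0.714) and phol (0.24 ± 0.15 in vg_simj, adjusted p = 0.549). Of 17 Trithorax group genes 13 were fitted and 0 were called in these comparisons, with median changes of -0.0053, -0.14 and -0.04 and 0 genes at an unadjusted p under 0.05. Among them trx, a histone H3 methyltransferase gene, was at -0.46 ± 0.23 in vg_simj (adjusted p = 0.410), Trl, which encodes the GAGA factor, at 0.30 ± 0.15 in simj (adjusted p = 0.670), ash2 at 0.30 ± 0.15 (adjusted p = 0.439) and the chromodomain helicase gene kis at -0.48 ± 0.27 (adjusted p = 0.474), both in vg_simj. Of 7 NuRD genes 5 were fitted and 0 were called against lacZ, where 0.412% to 3.33% of all fitted probe sets were. Among these 5, simj alone had an unadjusted p under 0.05, in simj and in vg_simj. The transgene simj was the member called in the averaged simj effect (0.80 ± 0.15, limma, adjusted p = 0.0401). This call was lost with no intensity trend (adjusted p = 0.0978) and without any one array other than lacZ replicate 2. With 1 array left out the simj change ranged from 0.65 to 0.95. The deacetylase gene HDAC1 was at -0.27 ± 0.16 in simj (adjusted p = 0.715) and Mi-2, the remodelling ATPase gene, at 0.24 ± 0.14 in vg (adjusted p = 0.654).

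**Figure D4:**
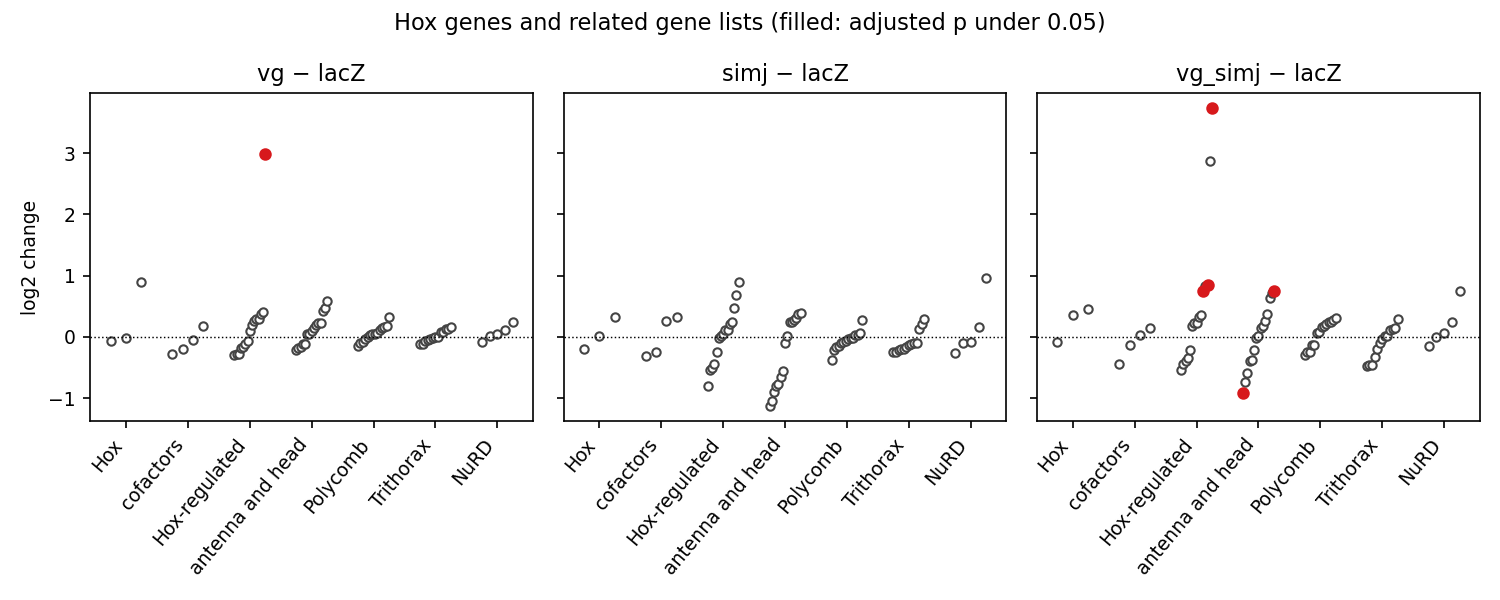
Log2 change against lacZ in vg, simj and vg_simj for the fitted members of the Hox list and 6 related lists, 1 point per gene, filled where the adjusted p was under 0.05. The 3 Hox genes hold no filled point, and the filled points are vg in vg discs and vg, dpp, Dll and dan in vg_simj discs.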

How the data were processed

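The deposited values are linear intensity, as MAS5 signals, a tool that the submitters' processing notes name. Its version and the genome build were not given in the sources used here. Trimmed of 2% at either end, every array's mean was 500, so each had been scaled by 1 factor. Of 18952 probe sets, 183 controls were left out of the tests. Symbols came from the platform annotation (13647 probe sets with 1 symbol, 402 with several, 4903 with none) and were updated through the RefSeq gene table, which lacked 103 of the single-symbol entries. The pseudocount, 2.8, is the 10th percentile of all values, and it understates the fold of dim genes. The 4 group means were fitted together (R 4.3.3, limma 3.58.1, eBayes with an intensity trend, 4 residual and 3.84 prior degrees of freedom), two-sided, after the procedure had been tested on simulated data. With 2 arrays against 2, exact permutation reaches no p below 0.333, so the tests rest on a spread shared across groups and probe sets, and the number of arrays limits the precision.

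The members and gene lists were chosen with earlier results of these data known. For a listed gene with several probe sets, that of highest mean was used. Every Hox probe set was named. In the other lists, called genes were named, or else up to 4 with the smallest p against lacZ, and 55 gene values were recomputed under each alternative. Genes with a pattern like that of a Hox gene were to be named for a call, or a span of 1 between log2 group means, in a probe set that passed the filter, and none did. Alternatives were 3 pseudocounts, no filter, a stricter filter, quantile normalization, median centring, no intensity trend, a replicate block, 1 probe set per gene, a fit of the compared groups alone, and leaving out single arrays.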

Additional observations from a re-analysis of the deposited data

Results flagged for a closer look

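In the bithorax complex 3 probe sets below the signal filter had groups that moved in opposite directions, and these differences were not tested. How often this pattern occurs over all probe sets was not counted, so the 3 are a description only. With 2 arrays against 2, groups often separate. Both vg arrays exceeded both lacZ arrays in 20.0% of all fitted probe sets, and both vg_simj arrays exceeded both simj arrays in 27.2%. One of the 5 lncRNA:iab8 probe sets (1626686_at) had 22.5 and 39.6 in vg_simj, a mean of 31.05, against 13.1 and 1.20 in vg, and 2.50 and 3.00 in simj, against 4.30 and 10.3 in lacZ, so that both simj arrays were below both lacZ arrays while both vg_simj arrays were above both vg arrays. Another (1628059_at) averaged 4.70 in vg_simj, 1.5 in vg, 1.65 in simj and 3.00 in lacZ, so that the simj and vg effects each had opposite signs in the 2 backgrounds. Its signals ran from 1.4 to 7.1, near the floor, beside 10th percentiles of 2.3 to 3.3 on the arrays. The rest of the 5 lncRNA:iab8 probe sets did not have such a pattern. The CG31275 probe set averaged 3.05 in vg_simj, against 5.85 in simj, and 17.7 in vg, against 4.2 in lacZ. Its 2 vg arrays had 27.8 and 7.6. All of these signals lie below 40.9, the median of the simj replicate 2 array, and 1 of them, the 39.6 of lncRNA:iab8, lies above the median of its own array.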

How the results depend on the processing

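The count of Hox probe sets called stayed at 0 in all 8 comparisons under all 19 alternatives that gave a value, each array left out among them. The smallest adjusted p of Scr under any alternative was 0.0844 in vg against lacZ and 0.0653 in the averaged vg effect, both with the replicate number as a block, where the Scr changes were 0.90 and 0.51 and the count of Hox calls was 0. Same-numbered arrays deviated together with positive correlations of 0.059 to 0.402 over the 6 pairs of groups, 2 of them under 0.1. The sample labels do not say that the numbers pair the samples, and the main fit had no replicate block. With the block the count of all probe sets called went from 79 to 117 in vg against lacZ and stayed at 5 in the interaction. What same-numbered arrays share was not tested. Scr in vg against lacZ ranged from 0.63 to 1.18 with 1 array left out and from 0.76 to 1.02 otherwise. Its interaction ranged from -1.05 to -0.50 with 1 array left out. The stricter filter kept only Dfd of the Hox probe sets.

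Sign changes occurred for changes near 0, none of them called. With median centring the median of all fitted probe sets was 0.11 in vg, 0.15 in vg_simj against simj and 0.14 for the averaged vg effect, against -0.0043, 0.045 and 0.026 without it. The Dfd change was then 0.056 in vg, -0.0071 in simj, 0.0085 in vg_simj (each against lacZ), 0.0155 in vg_simj against simj and 0.036 for the averaged vg effect. The pb change in vg was 0.11 with quantile normalization and 0.099 with median centring. With 1 array left out, Dfd ranged from -0.17 to 0.045 in vg, -0.13 to 0.145 in simj, -0.22 to 0.0496 in vg_simj, -0.16 to 0.11 in vg_simj against vg, -0.23 to 0.045 in vg_simj against simj, -0.17 to 0.11 in the interaction and -0.077 to 0.06043 for the averaged simj effect. The pb ranges were -0.25 to 0.22 in vg, -0.38 to 0.0017 in simj and -0.038 to 0.23 for the averaged simj effect. Scr ranged from -0.10 to 0.35 in vg_simj against simj and from -0.19 to 0.08065 for the averaged simj effect, and tio from -0.655 to 0.03054 in simj. The cause of these sign changes was not tested.

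The count of all probe sets called in vg against lacZ was 79, and 26 without lacZ replicate 2. In simj it was 42, of which 35.7% were higher, with 1 without lacZ replicate 2 and 24, of which 12 were higher, with median centring. In vg_simj it was 340, and 156 without lacZ replicate 2. In vg_simj against vg it was 94, and 21 without vg replicate 2. In vg_simj against simj it was 133, with 28 without simj replicate 2 and 353 with only the groups compared. The interaction had 5, and 0 to 10 with 1 array left out. The averaged vg effect had 374, with 134 without simj replicate 2 and 630 with the replicate block, and the averaged simj effect 222, and 95 with the stricter filter. The stricter filter fitted 5167 probe sets and the main fit 10205, so its 95 and the 222 are counts out of unlike totals. Over the settings that fitted the same 10205, the background against which the Hox counts are read moves accordingly.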
